A study of Mus musculus with 6 samples.

Results

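The 10 genes studied here encode proteins that accompany the AMPA-type glutamate receptor, and they were measured in the visual cortex of *Chrdl1* knockout (KO) and wild-type (WT) mice. They were found by symbol, and all 10 had a row among the 24453 rows of the deposited expression table. Among them, *Cacng2*, *Cacng3*, *Cacng4*, *Cacng5*, *Cacng7* and *Cacng8*, encode transmembrane AMPA receptor regulatory proteins (TARPs). The others were the cornichon genes *Cnih2* and *Cnih3*, the claudin-like *Gsg1l* and *Shisa6*. The mice were C57BL/6J males at postnatal day 14 that were either *Chrdl1* KO or WT, with 3 libraries of each genotype, and all were perfused with 4% paraformaldehyde before the visual cortex was dissected. The labels do not say how the KO was made or whether each library came from its own animal, so p-values refer to the spread of libraries, which may be technical.

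AMPA receptors carry most fast excitatory transmission in the cortex, and their pore is built from the subunits GluA1 to GluA4. TARPs are four-pass membrane proteins that bind the pore subunits, bring the receptor to the cell surface, anchor it at the synapse and slow its closing. They are divided into type I (γ-2, γ-3, γ-4 and γ-8, encoded by *Cacng2*, *Cacng3*, *Cacng4* and *Cacng8*) and type II (γ-5 and γ-7, encoded by *Cacng5* and *Cacng7*). Cornichons help the receptor leave the endoplasmic reticulum and slow its closing, whereas GSG1L and SHISA6 alter how it desensitises. CHRDL1 is a secreted protein of astrocytes that has been linked to the delivery of GluA2-containing receptors to synapses, and the comparison asks whether transcript levels of the receptor's partners differ without it.

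The last coding bases are shown for the 6 TARP genes because they carry the difference between the types: type I TARPs end in a short motif that binds the PDZ domains of PSD-95 and related scaffolds. Each line ends with the stop codon, and the capitals mark the 4 codons before it.
*Cacng2*: gccaaccgccggACCACGCCCGTAtga
*Cacng3*: gccaacagacgtACCACGCCTGTCtga
*Cacng4*: ctgaaccggcggACGACTCCCGTGtga
*Cacng8*: ctcaacaggaaaACCACGCCCGTGtag
*Cacng5*: gaccagatgtcaTCATCTCCCTGCtga
*Cacng7*: ctccacatctccACTTCGCCGTGCtga
Over these 12 capital bases, *Cacng3*, *Cacng4* and *Cacng8* differed from *Cacng2* at 2, 3 and 1 positions, and the type II genes *Cacng5* and *Cacng7* at 7 and 6. Over the aligned coding bases, with gaps left out, the identity between 2 TARP genes of one type was 63.0% to 72.8%. Between a type I and a type II gene it was 59.1% to 63.1%. *Cacng8*, with 1272 coding bases, aligned with the other type I genes over 943 to 976 bases. Its coding sequence, as annotated, ended in a stop codon but did not begin with ATG.

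The cornichons that serve AMPA receptors differ from their relative *Cnih1*, a general cargo receptor of the endoplasmic reticulum, by an inserted stretch. In the transcripts used here, the coding sequences of *Cnih2* and *Cnih3* were 483 bases long with the stop codon, against 435 for *Cnih1* and 420 for *Cnih4*. The difference from *Cnih1* was 48 bases, or 16 codons. It holds for these transcripts only. The longest annotated coding sequence, without the stop codon, was 480 bases for *Cnih1* and 561 for *Cnih3*. The capitals mark the stretch, coding bases 142 to 189 of both genes, whose removal left the best match to *Cnih1*, with 9 bases on either side.
*Cnih2*: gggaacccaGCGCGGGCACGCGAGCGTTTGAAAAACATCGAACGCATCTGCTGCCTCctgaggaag
*Cnih3*: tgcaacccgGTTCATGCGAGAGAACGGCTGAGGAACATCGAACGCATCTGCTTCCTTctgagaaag
Both stretches shared 34 of 48 bases. Sequences are from GENCODE M21 transcripts that carry the RefSeq accession of the deposited row, on GRCm38 (mm10).

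Values are FPKM, read counts scaled to exon length and to the mapped reads of the library. Levels of different genes can thus be set side by side per length of the counted gene model. For some of the genes this model leaves out part of the annotated exon, as given below, which limits comparisons of levels and their ratios. The libraries held an estimated 22.7 to 38.2 megareads, and each value of the 10 genes rested on 347 to 9853 reads. *Chrdl1* stood at 3.65, 3.57 and 3.09 FPKM in the WT libraries and at 0.172, 0.19 and 0.12 in the KO libraries, as labelled. The excitatory neuron marker *Slc17a7* was high in both genotypes, with means of 610.0 (WT) and 627 FPKM (KO). In such bulk tissue, fewer cells of a type and less RNA per cell cannot be told apart.

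*Cnih2* was the most abundant of the 10 genes and *Shisa6* the least. By the mean of 6 libraries the order was *Cnih2* (171 ± 17.8 FPKM, SD, n = 6), *Cacng3* (101 ± 8.05), *Cacng7* (66.5 ± 8.30), *Cacng8* (35.3 ± 3.56), *Cnih3* (34.4 ± 3.15), *Gsg1l* (20.1 ± 2.63), *Cacng2* (15.9 ± 2.51), *Cacng4* (14.997 ± 3.62), *Cacng5* (5.71 ± 0.649) and *Shisa6* (4.77 ± 0.932). The ranges of neighbours overlapped between *Cacng8* and *Cnih3*, between *Gsg1l* and *Cacng2*, between *Cacng2* and *Cacng4* and between *Cacng5* and *Shisa6*, and did not overlap between the others. *Cacng2* exceeded *Cacng4* in 3 of 6 libraries and *Cacng8* exceeded *Cnih3* in 4 of 6, so neither pair has an order here. *Gsg1l* was above *Cacng2*, and *Cacng5* above *Shisa6*, in 6 of 6 libraries. *Cnih2* lay above 98.1% of the tested genes and *Shisa6* above 30.2%.

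**Figure D1:**
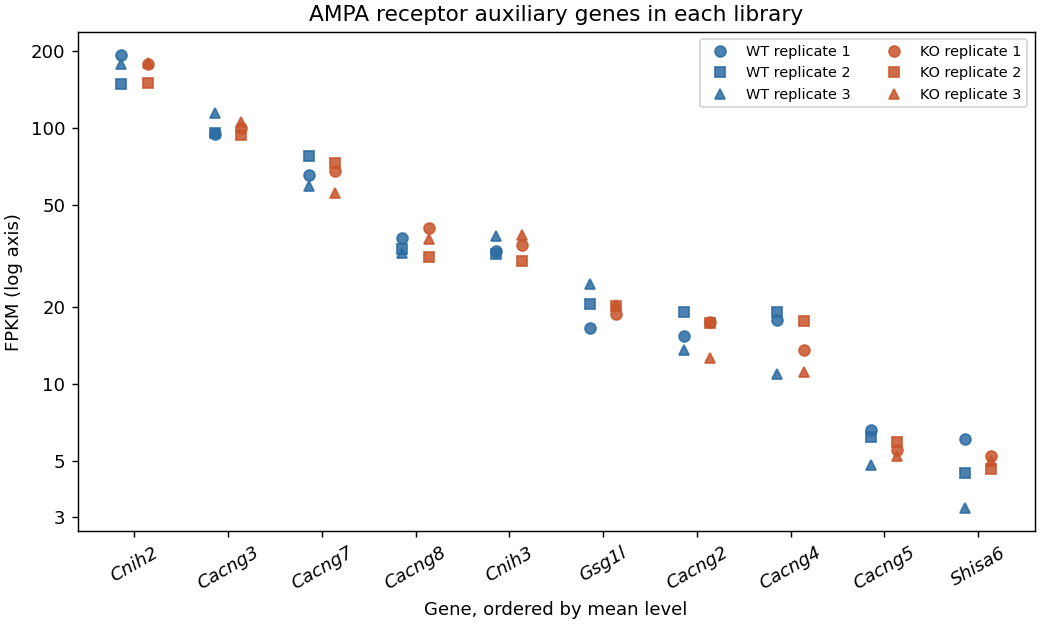
Level of each of the 10 genes in each of the 6 libraries, as FPKM on a log axis. Blue points are WT and orange points KO, with circles, squares and triangles for replicates 1, 2 and 3, and the genotypes overlap for every gene, from about 171 FPKM on average for *Cnih2* to 4.77 for *Shisa6*.

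The genotype did not separate any of the 10 genes. Called at an adjusted p under 0.05 by limma were 0 of the 10, against a background of 0.00777% of the 12863 tested genes (1 gene, *Chrdl1* itself). At an unadjusted p under 0.05 there were also 0 of the 10, against 0.63% of all genes. KO and WT values overlapped for all 10 genes, whereas 2.95% of all tested genes showed no overlap. Of the log2 fold changes (KO minus WT of log2(FPKM + 1)), 2 were above 0 and 8 below, with a median of -0.02 against 0.01 over all tested genes.

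Among the type I TARPs, *Cacng2* encodes stargazin (γ-2), the founding member whose loss causes the stargazer mouse phenotype. The counted gene model (NM_007583) lies on the minus strand of chromosome 15 in mm10, from 77993623 to 78119280. It measured 15.3, 19.1 and 13.5 FPKM in WT replicates 1, 2 and 3 and 17.4, 17.3 and 12.6 in KO replicates 1, 2 and 3. Both replicates numbered 3 were the lowest of their genotype, and the genotypes overlapped. The log2 fold change was -0.02 (SE 0.16, 95% interval -0.38 to 0.34, limma adjusted p = 0.9999, the same for each of the 10 genes).

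*Cacng3* encodes γ-3 and was the most abundant TARP gene. Its model is on the plus strand of chromosome 7, from 122671744 to 122769394 (NM_019430). Its values were 94.6, 95.7 and 114.6 FPKM in WT and 100.3, 94.1 and 105.7 in KO. The highest value of each genotype was in replicate 3, the opposite of *Cacng2*. Between genotypes the log2 fold change was -0.02 (SE 0.10, interval -0.24 to 0.20), and *Cacng3* made up 57.1% to 66.9% of the summed type I level in the 6 libraries.

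*Cacng4*, the gene for γ-4, a TARP of the immature brain, had the largest fold change of the 10 genes. Its model is on the minus strand of chromosome 11, from 107734780 to 107794464 (NM_019431). Its values were 17.7, 19.1 and 10.9 FPKM in WT and 13.6, 17.6 and 11.1 in KO. The replicates numbered 3 were again lowest in both genotypes, and KO replicate 1 lay below WT replicate 1. KO differed from WT by -0.15 on the log2 scale (SE 0.22, interval -0.67 to 0.37). Within the numbers 1, 2 and 3 the differences were -0.36, -0.11 and 0.03, and with the replicate number as a block the interval was -0.32 to 0.03 (limma unadjusted p = 0.0855, adjusted p = 0.999).

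*Cacng8* encodes γ-8, a TARP best known from the hippocampus. Its model is on the plus strand of chromosome 7, from 3394117 to 3415605 (NM_133190). It measured 37.1, 33.5 and 32.3 FPKM in WT and 40.8, 31.3 and 36.8 in KO. The highest and the lowest value were both in KO libraries. Its log2 fold change was 0.07 (SE 0.11, interval -0.17 to 0.32). The 4 tested markers of a 6-gene hippocampal list were all higher in KO by the mean of 3 libraries (median 0.27, 0 called). Their median difference was -0.18, 0.24 and 0.59 within numbers 1, 2 and 3. The 6 genes summed to 15.2 to 20.6 FPKM in WT and 18.6 to 27.7 in KO, led by *Fibcd1* and *Spink8* with none at 0, and their part in the value of *Cacng8* was not tested.

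Of the type II TARPs, which lack the type I ending, *Cacng7* (γ-7) was the more abundant. It lies on the plus strand of chromosome 7, from 3336585 to 3366948 (NM_133189), and its values were 65.2, 77.8 and 59.3 FPKM in WT and 68.2, 72.9 and 55.6 in KO. The order of the replicates was the same in both genotypes, with 2 highest and 3 lowest. For *Cacng7* the log2 fold change was -0.04 (SE 0.13, interval -0.35 to 0.26).

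*Cacng5* (γ-5) was the scarcest TARP gene. It lies on the minus strand of chromosome 11, from 107874605 to 107911362 (NM_080644), with 6.58, 6.21 and 4.83 FPKM in WT and 5.53, 5.92 and 5.22 in KO. The KO values fell inside the WT range. For *Cacng5* the log2 fold change was -0.06 (SE 0.11, interval -0.32 to 0.20). Type II genes gave 30.4%, 33.4% and 27.2% of the summed TARP level in WT replicates 1, 2 and 3 and 29.97%, 33.0% and 26.8% in KO.

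Of the 6 TARP genes, 4 sit in 2 tandem groups, and *Cacng2* and *Cacng3* lie apart from them. On chromosome 7, *Cacng7* and *Cacng8* are 22.5 kb apart and *Cacng6*, whose product is a calcium channel subunit of muscle and not a TARP, follows after 8.55 kb. *Cacng6* averaged 0.635 ± 0.160 FPKM in WT libraries against 0.661 ± 0.0559 in those of KO, below the mean of 1 FPKM at which genes were tested. On chromosome 11, *Cacng5* and *Cacng4* are 80.05 kb apart and *Cacng1*, another muscle calcium channel gene, lies 15.8 kb beyond *Cacng4*. *Cacng1* averaged 0.142 ± 0.0395 and 0.0737 ± 0.0215 FPKM, so each AMPA receptor pair lies beside a muscle paralogue of low level.

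*Cnih2* lies on the minus strand of chromosome 19, from 5092868 to 5098521 (NM_009920). It measured 193, 149 and 178 FPKM in WT and 178, 151 and 180.3 in KO. The replicates numbered 2 were the lowest in both genotypes, and the differences within numbers 1, 2 and 3 were -0.12, 0.02 and 0.02. Its log2 fold change was -0.03 (SE 0.12, interval -0.30 to 0.25), and -0.13 to 0.07 was the interval with the block.

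*Cnih3* lies on the plus strand of chromosome 1, from 181352628 to 181460641 (NM_001160211). Its values were 33.0, 32.2 and 37.9 FPKM in WT and 34.9, 30.3 and 38.0 in KO. Replicate 3 was highest and replicate 2 lowest in both genotypes, which overlapped. With 0.00 (SE 0.10, interval -0.24 to 0.24) its log2 fold change was the smallest of the 10. *Cnih2* made up 82.2% to 85.4% of the summed level of both cornichons. The relatives without a role at AMPA receptors, *Cnih1* and *Cnih4*, had log2 fold changes of -0.04 and -0.01, from WT means of 41.8 and 8.44 FPKM.

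*Gsg1l* encodes a distant claudin relative that slows recovery of the receptor from desensitisation. It lies on the minus strand of chromosome 7, from 125878419 to 126082411 (NM_001101488), 3.11 Mb from *Cacng3*. It measured 16.6, 20.5 and 24.5 FPKM in WT and 18.7, 20.1 and 20.3 in KO. All KO values lay within the WT range, and the WT spread (SD 3.995) was larger than the KO spread (0.874). For *Gsg1l* the log2 fold change was -0.04 (SE 0.13, interval -0.35 to 0.26).

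*Shisa6* encodes a single-pass protein, also called CKAMP52, that holds receptors at the postsynaptic density. It lies on the minus strand of chromosome 11, from 66211725 to 66526126 (NM_001034874). It measured 6.07, 4.46 and 3.25 FPKM in WT and 5.23, 4.66 and 4.97 in KO. Again the WT libraries held both the highest and the lowest value. For *Shisa6* the log2 fold change was 0.12 (SE 0.17, interval -0.27 to 0.51), and it was -0.06 without WT replicate 3, the lowest library. The WT replicates had the opposite order to that of *Gsg1l*, which was highest in replicate 3.

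**Figure D2:**
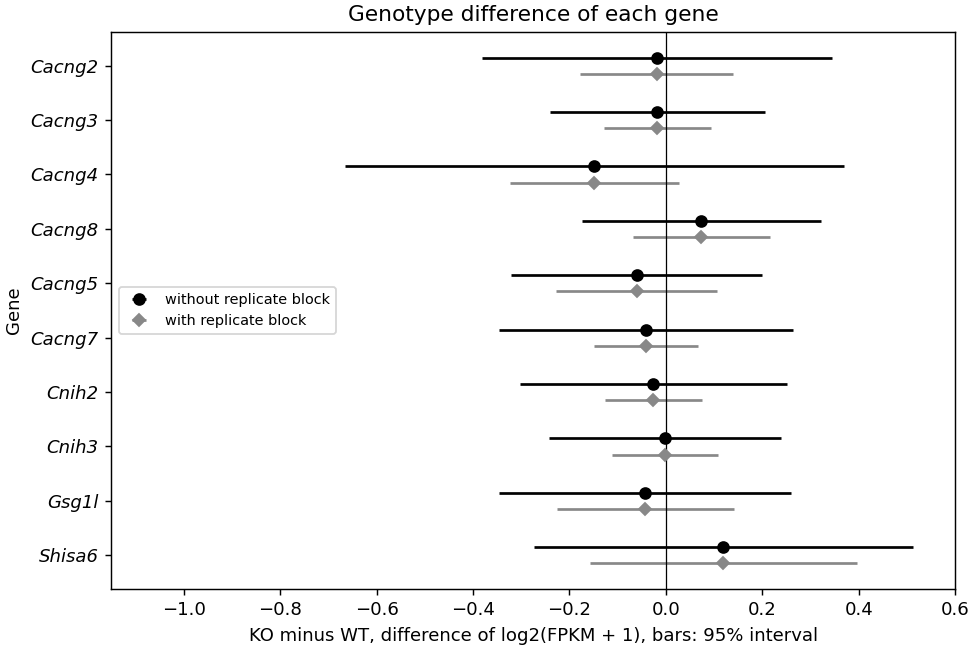
Difference between KO and WT of log2(FPKM + 1) for each gene, with its 95% interval, without (black circles) and with (grey diamonds) the replicate number as a block. Every interval includes 0, and the point of *Cacng4* at -0.15 and that of *Shisa6* at 0.12 lie farthest from it.

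The title number paired the libraries, and with it as a block the errors became smaller while the calls stayed at 0. The SE of the 10 genes ran from 0.10 to 0.22 without the block and from 0.04 to 0.12 with it. With the replicate block 0 of 10 genes were called, against 0.00777% of all tested genes, and 0 had an unadjusted p under 0.05, against 3.91%. Within numbers, 0 of 10 genes were higher and 0 were lower in KO in all 3 pairs, where 12.3% and 9.59% of all tested genes were. Without the block and on the log2(FPKM + 1) scale, a change of more than 1.5-fold either way was outside the 95% interval for 9 of the 10 genes, all but *Cacng4*, and for 95.9% of all tested genes. This scale understates changes of low genes, so for *Shisa6*, whose interval reached 0.51, the same cannot be said of the FPKM itself.

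The combined supply of partner transcripts relative to pore transcripts was also close between genotypes. The summed FPKM of the 10 genes divided by that of *Gria1* to *Gria4* was 2.20, 1.93 and 2.34 in WT replicates 1, 2 and 3 and 2.22, 1.96 and 2.16 in KO. The replicates numbered 2 were lowest in both. For the 6 TARP genes the ratio was 1.09 ± 0.0480 for WT against 1.08 ± 0.0482 for KO (SD, n = 3), and for the 2 cornichon genes 0.947 ± 0.159 and 0.926 ± 0.111. These sums are given as a description with no test.

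Related genes did not pass either. Of the 4 pore subunit genes, 0 were called: *Gria1*, *Gria2*, *Gria3* and *Gria4* had log2 fold changes of 0.06, -0.05, 0.01 and -0.01. Of 20 genes for other AMPA receptor complex and assembly proteins, 0 were called, with 6 above 0 and 14 below and a median of -0.01. Those with the smallest unadjusted p were *Prrt1*, which encodes the receptor-associated SynDIG4 (0.15), *Shisa8* (0.12), *Olfm3* (-0.12) and *Syndig1* (-0.09). Of 16 genes for TARP-binding scaffolds, adaptors and kinases, 0 were called, with 10 above 0 and a median of 0.01. Among those with the smallest unadjusted p were *Ap4m1*, an adaptor subunit gene (-0.11), *Grip2* (-0.11) and the calcineurin gene *Ppp3ca* (-0.06). *Gsg1*, the testis relative of *Gsg1l*, averaged 0.393 ± 0.114 FPKM in WT libraries against 0.373 ± 0.207 in KO and was below the tested level.

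Of the cell type marker lists, that of striatal neurons had the largest median difference between genotypes. All 10 were lower in KO, with 0 called, 4 at an unadjusted limma p under 0.05, a median of -0.58 and none at 0. Their summed level was 278 to 328 FPKM in WT and 148 to 325 in KO, with 148 and 150 in KO replicates 1 and 3. Of these markers *Ppp1r1b* and *Penk* were the most abundant. Within number 2, where the sums were 312 in WT and 325 in KO, the differences of the 10 AMPA receptor genes ran from -0.13 for *Cacng2* to 0.05 for *Shisa6*. Within number 1 they ran from -0.36 for *Cacng4* to 0.17 for *Cacng2*, and within number 3 from -0.27 for *Gsg1l* to 0.49 for *Shisa6*. Of 8 meningeal markers 7 were higher in KO (0 called, median 0.24), with sums of 398 to 584 FPKM in WT and 563 to 642 in KO, led by *Ptgds* and *Igf2* with none at 0. The part of the striatal and meningeal transcripts in these values was not tested.

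A clearer grouping than genotype was the number in the library titles, which WT and KO libraries share in pairs. The labels do not say what it stands for. A longer code in the titles is shared by the same pairs, so the number and this code cannot be told apart. In a limma F test of the number with genotype in the model, added after the values were seen, 5 of the 10 genes differed at an adjusted p under 0.05, against 30.6% of all tested genes. They were *Cacng4* (adjusted p = 0.00682), *Cacng7* (0.00962), *Cnih2* (0.0124), *Cacng2* (0.0176) and *Cnih3* (0.0276). On whole reads recovered from the FPKM steps, the limma voom fit called 8 of 10, against 35.7% of all genes, adding *Cacng3*, *Cacng5* and *Gsg1l*. The share among the 10 genes cannot be read as particular to them.

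The 5 genes went in 2 opposite directions. *Cacng4*, *Cacng2* and *Cacng7* were highest in number 2 and lowest in number 3, by 0.69, 0.45 and 0.39 on the log2(FPKM + 1) scale. *Cnih2* and *Cnih3* were lowest in number 2, with differences between numbers 2 and 3 of -0.26 and -0.27. *Cacng2* and *Cacng7* ran nearly in parallel over the 6 libraries (Pearson r = 0.98), while *Cacng7* and *Cnih3* ran in opposite directions (r = -0.87). These correlations describe 6 libraries that come in pairs and share depth and tissue, out of 45 pairs of genes, and carry no p.

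**Figure D3:**
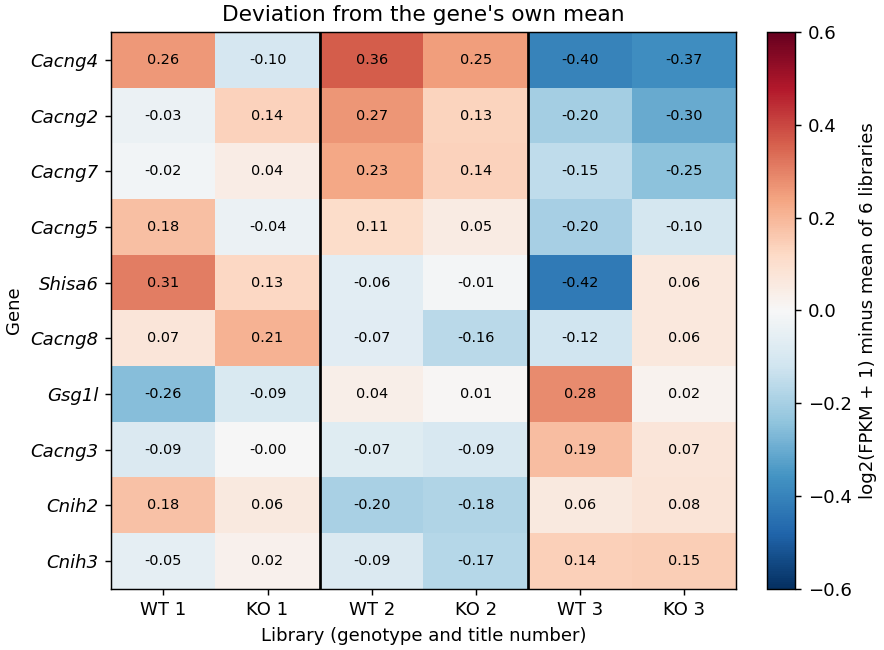
Deviation of log2(FPKM + 1) from each gene's mean over the 6 libraries, with libraries ordered by title number and genes by the difference between numbers 2 and 3. Black lines separate the numbers; *Cacng4* was 0.36 and 0.25 above its mean in the libraries numbered 2 and 0.40 and 0.37 below it in those numbered 3, and the cornichons show the reverse.

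The 3 TARP genes that the F test called had a counted gene model that stopped short of the annotated 3′ end. *Cacng5*, which was also lower in number 3 than in number 2, by a difference of 0.23 (limma adjusted p = 0.113, and 0.0449 with voom), had a complete one. The table gives 1 model per gene, and its length can be compared with GENCODE M21. For *Cacng7* the counted model was 822 bp long against 825 bp of coding sequence and 2441 bp of annotated exon. For *Cacng4* it was 979 bp against 981 bp and 3575 bp, so both rows hold essentially coding sequence alone. For *Cacng2* the model covered 2881 of 5510 bp. Part of the annotated exon was also left out for *Cacng3* (1520 of 2777 bp counted) and *Cacng8* (1375 of 2345 bp). The annotated gene ran on beyond the model's 3′ end for 2423 bp in *Cacng4*, 1875 bp in *Cacng2* and 1273 bp in *Cacng7*, and for at most 43 bp in the other 7 genes.

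**Figure D4:**
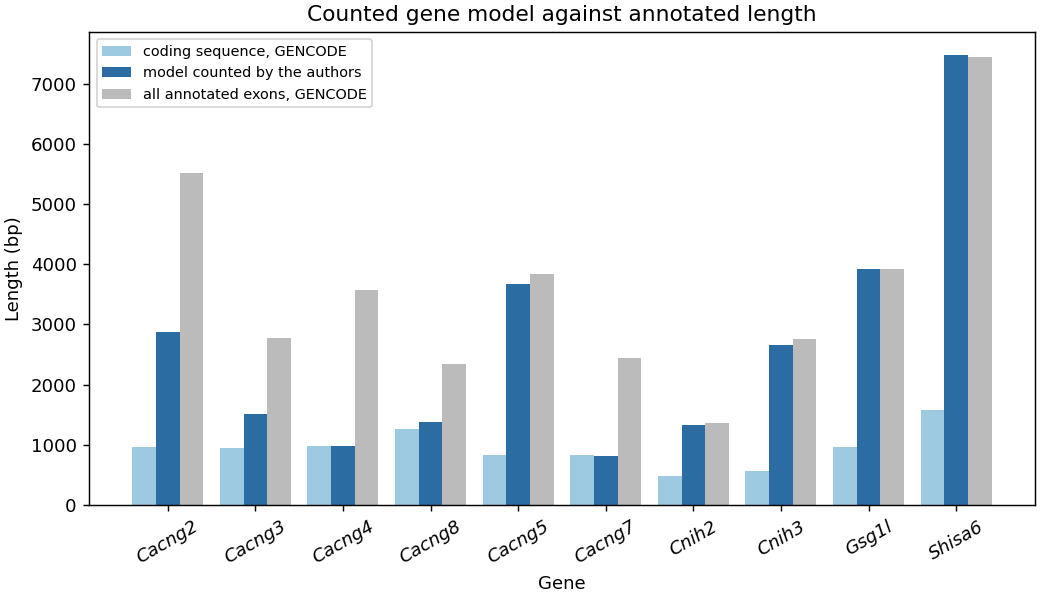
Length in base pairs of the coding sequence, of the model counted by the authors and of all annotated exons, for each gene. The counted model is close to the coding length for *Cacng4* (979 against 981 bp) and *Cacng7* (822 against 825 bp) and covers nearly all annotated exon for *Cacng5*, *Cnih2*, *Cnih3*, *Gsg1l* and *Shisa6*.

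The same comparison was made, as a description and with length classes chosen after the values were seen, in the 11912 of 12863 tested genes that matched 1 annotated gene. Genes whose model ended 1000 to under 5000 bp short of the annotated 3′ end numbered 1104, and 61.3% of them were higher in number 2 than in number 3, with a median difference of 0.08. Of 8193 genes with models that ended within 100 bp, 45.6% were, with a median of -0.02. Among the 10 genes the counts were 3 of 3 and 2 of 7. Of the related genes on the lists, 4 of 5 with a stretch of 1000 to under 5000 bp were higher in number 2. Among them were *Gria2* (0.36) and *Frrs1l* (0.86), which encodes an assembly factor of the receptor. With under 100 bp it was 10 of 27, among them *Grip2* (0.35). Of those with longer stretches, *Olfm1* (16305 bp) was lower in number 2 (-0.42), and *Grip1* (10100 bp, 0.24) and *Vwc2* (5405 bp, 0.03) were higher. The median genotype difference was 0.01 in both classes of genes, and the part of the uncounted 3′ stretch in the difference between numbers was not tested.

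**Figure D5:**
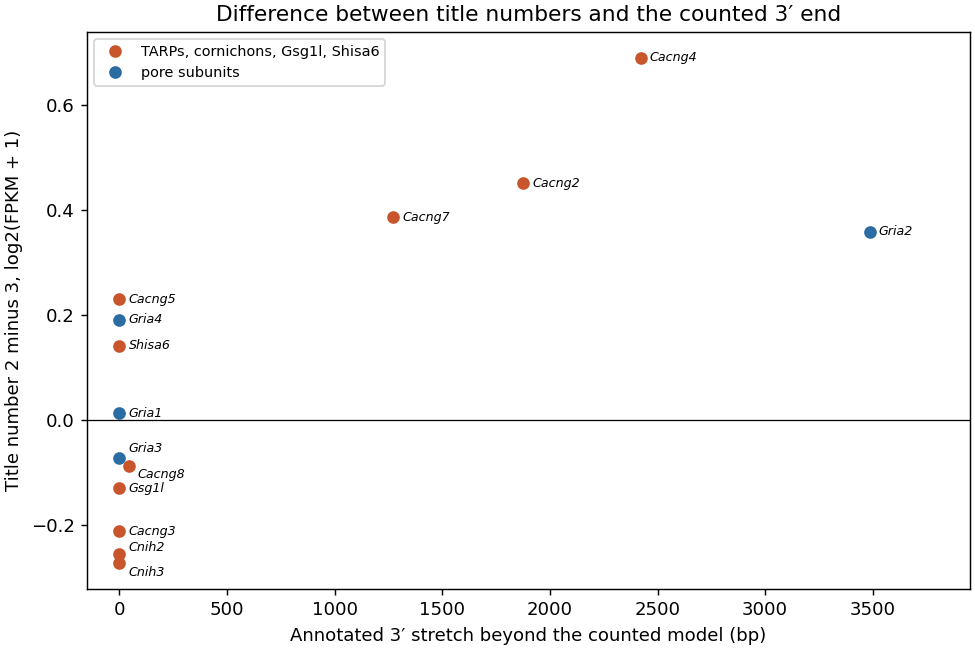
Difference between title numbers 2 and 3 in log2(FPKM + 1), mean of the 2 libraries of each number, against the annotated 3′ stretch that the counted model leaves out, in base pairs. *Cacng4*, *Cacng2* and *Cacng7* and the pore subunit gene *Gria2* lie to the upper right at 0.69, 0.45, 0.39 and 0.36, and the other 7 of the 10 genes lie between -0.27 and 0.23.

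Cell type markers differed between title numbers too. The 8 markers of mature oligodendrocytes, 7 of them called in the same F test, had median deviations of -0.42, 0.22 and 0.22 in numbers 1, 2 and 3. Their summed level was 1812 to 2994 FPKM in WT and 1432 to 2754 in KO, and *Mbp* was among the most abundant. The 10 striatal markers stood at -0.03, 0.47 and -0.28, with 2 of 10 called. In KO replicate 1, where the striatal sum was 148 FPKM against 328 in WT replicate 1, *Cacng2* and *Cacng7* were above WT replicate 1, at 17.4 against 15.3 and 68.2 against 65.2 FPKM, and *Cacng4* was below it, at 13.6 against 17.7. In number 3, where the striatal sum was 150 in KO against 278 in WT, *Cacng2* and *Cacng7* were below WT, at 12.6 against 13.5 and 55.6 against 59.3 FPKM, and *Cacng4* was slightly above it, at 11.1 against 10.9. Each of these differences rests on 1 library per genotype, and the part of striatal transcripts in them was not tested. The 7 oligodendrocyte precursor markers had medians of -0.01, 0.09 and -0.01 with 0 called, and their sums were 165 to 176 FPKM in WT and 166 to 180.4 in KO, led by *Olig1* and *Gpr17*. The 9 excitatory neuron markers, led by *Slc17a7* and *Camk2a*, had medians of 0.05, -0.04 and -0.004, with 5 called. Those of the 7 interneuron markers, led by *Sst* and *Gad1*, were -0.04, 0.05 and 0.13, with 5 called. In the same F test 30.6% of all tested genes were called. The part of these cell types in the values was not tested.

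The 2 genes with the widest spread over the libraries were *Shisa6*, with a highest value 1.87 times the lowest, and *Cacng4*, with 1.76 times. The tested genes closest to *Shisa6* in pattern, by the root mean square distance of centred log2(FPKM + 1) values over 6 libraries, were *Trhr*, *Ablim3* and *Cdhr1*, at 0.05, 0.08 and 0.08, where *Shisa6* itself deviated by 0.22. *Trhr*, which encodes the receptor of thyrotropin-releasing hormone, measured 3.38, 2.41 and 1.93 FPKM in WT and 2.94, 2.69 and 2.997 in KO, and followed *Shisa6* in having its highest value in WT replicate 1 and its lowest in WT replicate 3. Those closest to *Cacng4*, which deviated by 0.31, were *Gpr165*, *Zfp72* and *Supt20*, at 0.05, 0.06 and 0.07. Genes at under 50% of the member's own deviation numbered 24 for *Shisa6* and 283 for *Cacng4*.

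Family members shared only short exact runs of sequence, despite the identity given above. The longest identical run between the coding sequences of any 2 TARP genes was 26 bases, in *Cacng5* and *Cacng7*, and between *Cnih2* and *Cnih3* it was 19. Of all 50-base stretches in the transcripts of *Cacng3*, *Cacng5*, *Cacng7*, *Cnih2*, *Cnih3*, *Gsg1l* and *Shisa6*, 0 occurred in the transcript of another gene, and the share was 0.842% for *Cacng2*, 0.371% for *Cacng4* and 1.83% for *Cacng8*. Other genes overlapped the exons of 3 of the 10: an antisense transcript over 323 bp of *Cacng2*, a microRNA gene over 91 bp of *Cacng8* and *Yif1a* over 14 bp of *Cnih2*. The library kit keeps the strand, but no strand option is named for the counting. Reads within the 323 bp that *Cacng2* shares with its antisense partner therefore cannot be told apart. The overlaps were taken over all annotated exons, and how much of them lies in the counted models was not determined.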

How the data were processed

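Messenger RNA libraries of mouse visual cortex were compared, 3 WT and 3 *Chrdl1* KO. Groups follow the labelled genotype, and replicates are numbered as in the middle field of the titles. A single FPKM table on mm10 was deposited, made by the authors per the file headers with a HOMER command that counts exons and condenses each gene to 1 row; it lists 12 libraries, and the 6 with columns were used. Per the submitters' processing notes STAR 2.4.0k and HOMER 4.8.3 were used. From the FPKM steps, library totals were recovered such that 100% of the values checked (nonzero, under 200 reads, in genes where rounding of the FPKM is small) were whole within 0.1 read.

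Genotypes were compared in R 4.3.3 by limma 3.58.1, 2-sided and with an intensity trend, using log2(FPKM + 1) of the 12863 genes that averaged at least 1 FPKM, Benjamini-Hochberg adjusted over all of them. This scale understates changes of low genes. Same-numbered libraries deviated together (correlations of 0.43, 0.71 and 0.67, against -0.61 to -0.06 for other pairings), so the number pairs them and a fit with it as a replicate block stands beside the results. Alternatives were a pseudocount of 0.1, no filter, median-ratio scaling, voom on recovered reads and leaving out each library. The script was tested on simulated data. Python 3.11.15 with Biopython 1.88 handled GENCODE M21 sequences, and coding identity came from global alignment. The genes and lists were chosen with earlier results of these data known. The named genes were, by rule, all 10 genes, the pore subunits and the relatives with no role at AMPA receptors. The rule also named the 4 genes of smallest unadjusted p in each other list and the 2 most abundant of a marker list. It further named the 3 genes closest in pattern to the 2 most variable ones. *Slc17a7*, *Frrs1l*, *Olfm1*, *Grip1*, *Vwc2* and the parallel pairs were chosen after their values were seen. The values of 2 genes that this rule names are not reported here.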

Additional observations from a re-analysis of the deposited data

How the results depend on the processing

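None of the 10 genes was called under any of the 6 alternatives or with any 1 library left out, and the limma adjusted p of the 10 genes was 0.999 or more throughout. In the 6 alternatives with all libraries, all 60 fold changes kept their direction. The count of genes called in the whole table, 1, became 2 with a pseudocount of 0.1, 6 without the filter and 2 with voom on recovered reads and the replicate block (added after seeing the data), and it ran from 1 to 4 with 1 library left out, the highest without KO replicate 2. The replicate block itself left it at 1. Leaving out 1 library moved the fold changes across 0 for 9 of the genes: *Cacng2* ran from -0.13 to 0.13, *Cacng3* from -0.0665 to 0.0706, *Cacng8* from -0.0126 to 0.17, *Cacng5* from -0.18 to 0.0147, *Cacng7* from -0.13 to 0.0712, *Cnih2* from -0.13 to 0.0567, *Cnih3* from -0.0754 to 0.0841, *Gsg1l* from -0.18 to 0.0888 and *Shisa6* from -0.0628 to 0.30. *Cacng4* stayed below 0, from -0.39 to 0.00. The difference in the ratio of the summed 10 genes to the pore subunits, -0.0425, ran from -0.155 to 0.0484. The count of genes differing between title numbers, 5, was 8 with voom and ran from 5 to 8 with 1 library left out, highest without KO replicate 3; there the lone library of a number is assumed to vary like the others. The cause was not tested. The lowest count behind a value of the 10 genes was 347 reads.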
